A study of Homo sapiens with 36 samples.

Results

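Chromatin access was compared between BT549 cells given control siRNA and dexamethasone (DEX) and BT549 cells given control siRNA and vehicle. BT549 is an established human line of triple-negative breast cancer, and DEX is a synthetic glucocorticoid. The DEX group (siCtl, +DEX) received 500 nM DEX for 2 h and the vehicle group (siCtl, Veh) received vehicle, with 3 libraries each, so 6 of the 36 libraries of the series entered the comparison. Both groups carried the same control siRNA (a SMARTpool), and the genotype of both is labelled WT. The labels give 72 h for knock-down of GATA6 and no separate time for the control siRNA, and they give no identity for the vehicle beyond stating that DEX was dissolved in water. All libraries came from 1 cell line, from 50000 cells each, by ATAC-seq, which marks open DNA by where a transposase can cut and tag it. Libraries of 2 other experiments served only to score regions found here: BT549 cells with siRNA against GATA6 and 500 nM DEX for 2 h or vehicle (siGATA6, 3 libraries each), and BT549 cells with no siRNA given in their labels, in DMSO (4 h), given 500 nM DEX over the same 4 h or no DEX (4 libraries each).

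Peaks of the 6 libraries on chromosomes 1 to 22 and X were merged where they overlapped, which gave 173775 regions. A library held a region when at least 1 of its peaks overlapped it by 1 bp or more. A region was called gained when all 3 DEX libraries and no vehicle library held it, lost in the opposite case, and kept when all 6 libraries held it. By these rules 4325 regions were gained (2.49% of all regions), 1416 were lost (0.815%) and 79041 were kept. An absent peak means that the authors' peak caller listed none there, not that no read fell there. In pooled cells, a larger share of cells with an open region and more access per cell cannot be told apart.

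The glucocorticoid receptor (NR3C1) sits in the cytoplasm with heat shock proteins and immunophilins until a steroid binds it, then enters the nucleus and binds DNA as a dimer. Its binding letters are an imperfect palindrome of half-sites spaced by 3 bases. It raises transcription of anti-inflammatory and feedback genes and of genes for fuel handling, and it lowers many cytokine genes, largely through AP-1 and NF-κB. In breast epithelium it acts on survival and on clock genes, and in cells without estrogen receptor its target genes include several that restrain growth factor signals.

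The receptor's half-site pair ACANNNTGT stood in 20 of the 68 promoter windows that a gained region overlapped (29.4%), against 5.37% of all 34789 windows. A window is the 300 bases from 250 before to 50 after a RefSeq transcript start (GRCh38.p14), searched on both strands, and a gene can have several. The share was 16.8% of 131 windows at kept regions whose read pileup rose with DEX (defined below), 2.0% of 50 windows at kept regions whose pileup fell, 2.42% of 15871 windows at all kept regions and 0 of 31 windows at lost regions. The nearest such letters lay a median of 63 bp from the summit of the gained region and 118 bp from the summit of kept regions. The complete consensus glucocorticoid response element, which contains the shorter motif, was in no window of a gained, lost or kept region. It stood in only 1 of all 34789 windows, so its absence from these classes says nothing about them. Windows at gained regions had a median GC content of 55.8%, against 66.3% at kept regions and 58.7% over all windows, so the windows compared also differ in base composition. Letters of other factors were searched too. The TEAD letters GGAATG stood in 23.5% of windows at gained regions, 25.8% at lost regions and 30.0% at kept regions whose pileup fell, against 14.1% of all windows. The GATA letters AGATAA stood in 19.1%, 12.9% and 20% of them, against 10.4% of all windows. The AP-1 letters TGANTCA stood in 7.35%, 16.1% and 22%, against 7.69%. At kept regions whose pileup rose, the TEAD, GATA and AP-1 letters stood in 14.5%, 7.63% and 14.5% of windows. At all kept regions they stood in 10.7%, 4.19% and 4.98%. No letters were searched outside these windows, and most gained regions lie elsewhere.

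The 5 promoters below show where the letters fall. They were chosen after their values were seen, as windows with the motif within 100 bp of a summit. Each is the 250 bases before 1 of the gene's starts, 5′ to 3′ on the minus strand, from RefSeq (GRCh38.p14), and the capitals mark ACANNNTGT. CIDEC (chr3:9878813-9879062) encodes a lipid droplet protein, PEAK3 (chr19:2282176-2282425) a pseudokinase of a family of signalling scaffolds and CAMKK1 (chr17:3890744-3890993) a kinase that activates calmodulin-dependent kinases. These 3 held gained regions. ACOT7 (chr1:6385769-6386018), an acyl-CoA thioesterase, and TSC22D3 (chrX:107775788-107776037), the anti-inflammatory protein GILZ, held kept regions whose pileup rose.
CIDEC: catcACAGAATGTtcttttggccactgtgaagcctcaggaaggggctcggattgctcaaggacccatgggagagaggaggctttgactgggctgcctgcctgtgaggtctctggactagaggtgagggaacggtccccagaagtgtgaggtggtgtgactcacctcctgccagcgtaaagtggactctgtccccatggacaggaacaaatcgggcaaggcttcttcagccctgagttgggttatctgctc
PEAK3: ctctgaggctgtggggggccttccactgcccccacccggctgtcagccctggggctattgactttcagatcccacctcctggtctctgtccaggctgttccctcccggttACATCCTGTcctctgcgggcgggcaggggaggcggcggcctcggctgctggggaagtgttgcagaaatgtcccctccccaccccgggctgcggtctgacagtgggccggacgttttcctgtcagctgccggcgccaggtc
CAMKK1: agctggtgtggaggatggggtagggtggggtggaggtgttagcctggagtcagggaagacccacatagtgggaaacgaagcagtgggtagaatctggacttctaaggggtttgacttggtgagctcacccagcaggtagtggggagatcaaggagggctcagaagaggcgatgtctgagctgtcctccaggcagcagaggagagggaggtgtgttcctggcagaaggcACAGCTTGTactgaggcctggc
ACOT7: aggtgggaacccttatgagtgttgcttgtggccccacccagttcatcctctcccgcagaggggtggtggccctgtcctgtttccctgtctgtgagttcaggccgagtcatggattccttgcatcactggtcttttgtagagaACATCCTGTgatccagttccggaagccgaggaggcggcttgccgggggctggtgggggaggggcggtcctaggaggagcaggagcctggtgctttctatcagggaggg
TSC22D3: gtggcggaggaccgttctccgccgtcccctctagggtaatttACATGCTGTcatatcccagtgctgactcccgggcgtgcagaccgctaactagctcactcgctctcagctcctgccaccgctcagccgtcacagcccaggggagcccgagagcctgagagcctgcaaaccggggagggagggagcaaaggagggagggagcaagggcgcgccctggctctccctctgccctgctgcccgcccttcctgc

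The letters in the CIDEC promoter lay 17 bp from the region's summit, where pileups (the whole number of reads stacked over a summit, recovered from the authors' fold and p) were 11, 17 and 25 in the DEX libraries. The PEAK3 letters lay 1 bp from a summit with pileups of 13, 11 and 16, and those of CAMKK1 lay 4 bp from a summit with pileups of 25, 40 and 67. No siCtl vehicle library listed a peak at these 3 promoters, as the rule for gained regions requires. No siGATA6 vehicle library and no DMSO library without DEX listed one either. With DEX, 3 of 3 siGATA6 and 4 of 4 DMSO libraries held the CIDEC and CAMKK1 regions. For PEAK3 they were 2 of 3 and 4 of 4. Gained regions with letters near a summit that are not printed recurred less. With DEX, 0 of 3 siGATA6 and 1 of 4 DMSO libraries held those of LINC02388 and LINC00308. For FAM107A they were 1 and 2, and for MARCHF10-AS1 1 and 0. At the ACOT7 promoter pileups were 144, 173 and 167 in the DEX libraries and 34, 25 and 36 in the vehicle libraries, a log2 difference of 2.41.

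The libraries held 118515, 117993 and 125141 peaks with DEX and 119598, 119914 and 118510 peaks with vehicle. The groups overlapped, and the means of 120550 ± 3985 and 119341 ± 737 (SD, n = 3 each) differed by no more than the spread between libraries in an exact two-sided permutation test (p = 0.9, where the smallest possible p is 0.1). The lowest background level of each library, taken as a measure of relative depth, was 0.492, 0.634 and 0.660 reads with DEX and 0.577, 0.576 and 0.651 reads with vehicle, so the shallowest library was the first DEX library. All 10 marker genes of mesenchymal triple-negative lines (VIM, ZEB1, CDH2, FN1, CD44, AXL, CAV1, SPARC, TWIST1, SNAI2) had a peak at their start in all 6 libraries. Of markers of other cells, 3 of 8 luminal, 4 of 8 leukocyte, 2 of 7 endothelial and 5 of 8 neural genes did, with ESR1, PGR, PTPRC, PECAM1 and VWF among those that did not.

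**Figure D1:**
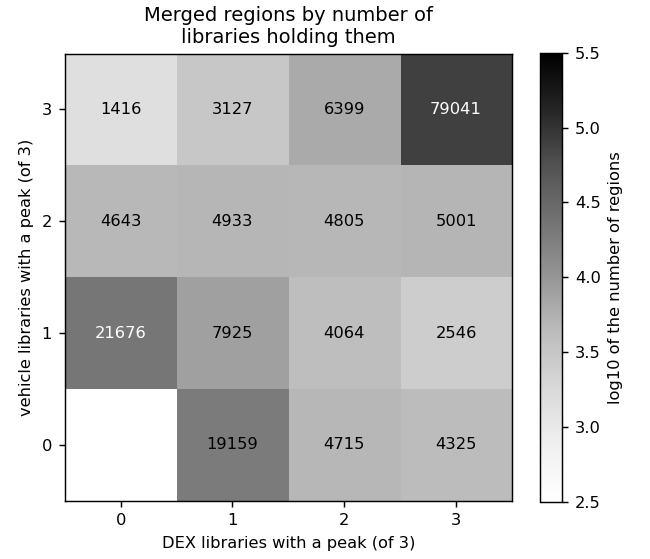
Number of merged regions by how many of the 3 DEX libraries and how many of the 3 vehicle libraries held a peak there, each cell giving its count. The corner of 3 DEX and 0 vehicle libraries holds 4325 regions and the opposite corner 1416, while regions held by a single library are the most frequent after the 79041 kept regions.

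Peaks in gained regions had higher values than peaks in lost regions. In gained regions the median pileup was 11, 13 and 16 reads in the DEX libraries, and the authors' fold enrichment over local background had medians of 6.02, 6.12 and 6.63. In lost regions the median pileup was 9, 9 and 10 reads in the vehicle libraries, with median folds of 5.07, 5.08 and 5.33. Kept regions were stronger than either, with median folds of 12.2, 12.7 and 13.7 with DEX and 12.7, 12.8 and 13.9 with vehicle, and median −log10 q values of 26.9, 30.8 and 35.5 with DEX and 29.7, 30.3 and 35.9 with vehicle. Just inside the rule, regions of 3 DEX and 0 vehicle libraries had a median fold of 6.18. Just outside it, the 2546 regions of 3 DEX and 1 vehicle libraries had a median of 5.73 with DEX and 4.85 in the vehicle library that held them, and the 4715 regions of 2 and 0 had 4.82. For lost regions the values were 5.07 inside the rule, and 5.55 and 4.78 for regions of 1 against 3 and 0 against 2 libraries. Without 1 DEX library, gained regions numbered 5536 to 6151 and lost regions 2172 to 2906. Without 1 vehicle library they numbered 4993 to 5481 and 2689 to 3502. The rule then asks for fewer libraries, so higher counts follow from it. The lost count rose by over 1.5 times whichever library was left out. These counts do not show how many of the called regions depend on 1 library.

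Gained regions lay away from gene starts. Their median distance to a known start was 19.8 kb, against 12.9 kb for all regions, and 7.84% lay within 1000 bp of a start, against 20.5% of all regions and 28.8% of kept regions. Of gained regions, 49.3% had their centre inside a gene and over 1000 bp from a start, against 39.7% of all regions. Another gained region lay within 10 kb of 15.4% of gained regions, against 6.50% of all regions. Distance from starts was not particular to gained regions. Lost regions had a median of 23.7 kb and kept regions whose pileup fell 24.6 kb, while those whose pileup rose had 15.3 kb. Lost regions had 9.89% at gene starts, and 6.78% lay within 10 kb of a gained region, close to the share of all regions. The gained share of regions differed by chromosome, between 1.39% on chromosome 19 and 3.05% on chromosome 5.

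The gained regions with the highest fold rank named genes of several kinds. A region within 1000 bp of a start of AP3B1 (chr5:78001266-78001589), a subunit of the AP-3 trafficking adaptor, had pileups of 47, 50 and 55 and folds of 26.6, 25.5 and 27.2 with DEX. A region inside ZBTB16 (chr11:114179204-114179859), which encodes the zinc finger repressor PLZF, had pileups of 112, 116 and 161. LAMA3, a laminin chain of basement membrane, had 63, 86 and 119 inside the gene (chr18:23725655-23726205), and a site near VARS2, a mitochondrial tRNA synthetase, had 58, 75 and 90 (chr6:30926683-30927094). PIK3R1, the regulatory subunit of PI3-kinase, was the nearest gene to 2 of the 8 strongest gained regions. The nearer lay 44448 bp away with pileups of 75, 66 and 118, and the other lay 241612 bp away with 74, 83 and 102. The remaining 2 of the 8 were nearest to BTG1, an anti-proliferative gene (39, 45 and 55), and to KLF9 (90, 84 and 94). Every DEX library of siGATA6 and DMSO cells held all 8. Without DEX, 2 of 4 DMSO libraries held the nearer PIK3R1 region and 1 of 4 the ZBTB16 region. The KLF9 region was held by 1 of 3 siGATA6 vehicle libraries, and the others by none.

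Kept regions were tested in limma on 2 measures, and most calls named below hold on 1 of them. The main test was on the authors' fold enrichment, which was higher with DEX in 404 kept regions (0.511%) and lower in 184 (0.233%). The test on log2 pileup, with each library set to its median, was added after the data were seen and called 2160 higher (2.73%) and 1383 lower (1.75%). With a replicate block it called 4553 higher and 5079 lower, so the balance of rises and falls depended on the fit. "Rose" and "fell" refer below to pileup. Of the kept regions given below with values in every library, those of CRISPLD2, KLF6, FOXO3, PIK3R1, LPP, TGFBR3, LOC124904395, IGF2BP2, IL7R and LAMA3 and the KCNMA1 region that rose also passed on fold in the same direction. The regions at the starts of MT2A and MT1X and one each near DDIT4 and ABLIM3 were lower on fold. At FKBP5, TSC22D3, ERRFI1, KLF9, GATA6, NFKBIA, ANGPTL4, CEBPB, LIF, CSF1, TP63, CAV1, NRG1, ROBO1 and SPAAR, at the KCNMA1 region that fell and at the second metallothionein region (chr16:56632177-56632764) the fold did not pass. When each library was left out in turn, 134 of the 246 regions called on pileup near listed or named genes kept the call every time, and 22 of the 70 called on fold did. Of the regions listed here by gene as passing on fold in the same direction, only those of CRISPLD2, TGFBR3 and LOC124904395 kept that call every time.

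FKBP5, an immunophilin that lowers the receptor's affinity for hormone, had 10 gained regions among 30 regions whose centre lay in the gene or within 50 kb of it, and no lost region. By this distance 22.1% of 19974 protein-coding genes had a gained region and 7.55% a lost one. Within the gene, 2 gained regions had pileups of 103, 125 and 135 (chr6:35722371-35722828) and of 108, 111 and 140 (chr6:35725677-35726045). The kept region at the start (chr6:35727450-35728390) had pileups of 121, 140 and 158 with DEX and 24, 27 and 26 with vehicle, with every DEX library above every vehicle library. With each library set to its median, that held for 10.2% of all kept regions, and the reverse for 9.13%. The region's log2 pileup difference was 2.48 ± 0.14 (SE, n = 3 each; limma adjusted p = 2.4e-08). ARMC12, the neighbouring gene, shared this cluster, with 4 kept regions near its own starts whose pileup rose, by 0.79 to 2.08 on the log2 scale.

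TSC22D3 had 8 gained regions of 24 and 1 lost region, 351 bp from a start (11, 8 and 18 reads in the vehicle libraries). The one with most reads (chrX:107673986-107674369), closer to PRPS1 than to TSC22D3, had pileups of 72, 111 and 105. At the start whose promoter is printed above (chrX:107775588-107776034), pileups were 55, 58 and 76 with DEX and 30, 37 and 38 with vehicle (log2 difference 0.89 ± 0.16; limma adjusted p = 2.6e-03). At another start (chrX:107716799-107717228) they were 68, 59 and 77 with DEX and 29, 15 and 22 with vehicle (1.72 ± 0.22; limma adjusted p = 1.5e-04). The groups did not overlap at either start.

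ZBTB16 had 1 lost region (8, 12 and 11 reads with vehicle) and 8 gained regions of 38, with the other strong one at chr11:114163936-114164364 (100, 142 and 144 reads). ERRFI1, a feedback inhibitor of EGFR, had 7 of 27, all of them with pileups of at most 45. At a kept region near it (chr1:8004752-8005516), pileups were 130, 158 and 166 with DEX and 53, 45 and 42 with vehicle (1.74 ± 0.14; limma adjusted p = 7.8e-07). DDIT4, an inhibitor of mTORC1, had 4 gained regions of 29, and 1 of them (chr10:72248252-72249118) had pileups of 186, 224 and 241, above every other gained region described here. Its nearest gene is ANAPC16, 12825 bp away. DUSP1, a phosphatase that switches off MAP kinases, had 3 gained regions of 21, with 82, 74 and 74 reads (chr5:172775525-172775844), 56, 63 and 53 reads and 25, 31 and 38 reads. KLF9, a receptor-induced repressor, had 3 gained regions and a kept region (chr9:70420748-70421076) with 135, 140 and 156 reads with DEX and 70, 68 and 79 with vehicle (1.04 ± 0.10; limma adjusted p = 8.9e-06).

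Of the genes always given, PER1, SGK1, CEBPD, NR3C1 and GATA6 had at most 2 gained regions each. PER1, a clock gene, had 32 regions within 50 kb, 26 of them kept, and none was gained, lost or changed in pileup. SGK1, a kinase that promotes sodium uptake and survival, had 1 gained region (11, 17 and 13 reads) and 2 lost ones. CEBPD had 1 gained region of 15, inside SPIDR (44, 60 and 67 reads). The receptor's own gene NR3C1 had 1 lost region of 30, with pileups of 6, 11 and 11 in the vehicle libraries, and no gained one. GATA6, the factor knocked down elsewhere in the series, had 2 gained regions of 20, and the pileup of 2 of its 7 kept regions rose. One of these, chr18:22214031-22214200, had 65, 55 and 69 reads with DEX and 22, 23 and 40 with vehicle (1.25 ± 0.20; limma adjusted p = 1.0e-03).

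Of 30 feedback and anti-inflammatory targets of the receptor, 21 had a gained region within 50 kb (70%, against 22.1% of all protein-coding genes), and 65 of the 660 regions near them were gained (9.85%, against 2.49% of all regions). Of the 295 kept regions near these genes, the pileup of 36 rose (12.2%) and that of 1 fell, beside 2.73% and 1.75% over all kept regions. On fold, 4 of them were higher (1.36%) and 5 lower (1.69%), beside 0.511% and 0.233% over all kept regions, so the preponderance of rises near these genes was seen on pileup and not on fold. The 4 were near CRISPLD2, KLF6, TNFAIP3 and TXNIP, and the 5 near DDIT4, ZBTB16 and TSC22D3. A kept region whose pileup rose lay near 14 of the 30 genes, against 11.7% of all protein-coding genes, and 5.96% of all genes had one that fell. KLF6, a Krüppel-like factor, had a kept region (chr10:3810092-3810546) with 108, 136 and 134 reads with DEX and 44, 40 and 47 with vehicle (1.57 ± 0.12; limma adjusted p = 6.6e-07). CRISPLD2, a secreted protein that dampens inflammatory signals, had 137, 159 and 207 reads with DEX and 27, 25 and 43 with vehicle (chr16:84832462-84832975; 2.47 ± 0.15; limma adjusted p = 4.1e-08). Both regions had separate groups. TXNIP, an inhibitor of thioredoxin, and TNFAIP3, which ends NF-κB signals, each had 1 kept region that rose, by 1.70 ± 0.23 and 1.12 ± 0.24 on the log2 scale (SE; limma adjusted p = 2.4e-04 and 0.011). The TNFAIP3 call ended without the first or the third DEX library (limma adjusted p = 0.076 and 0.051). NFKBIA, which holds NF-κB in the cytoplasm and was picked after its values were seen, had 3 gained regions and a kept region with 88, 79 and 97 reads with DEX and 37, 35 and 42 with vehicle (1.26 ± 0.14; limma adjusted p = 3.8e-05). The 1 region that fell was at the start of CEBPB, a partner factor of the receptor, with 59, 65 and 65 reads with DEX and 95, 99 and 86 with vehicle (difference −0.52 ± 0.14; limma adjusted p = 0.040). This call ended when any library but the third vehicle library was left out (limma adjusted p up to 0.21). The 8 listed genes with no changed region were PER1, SGK3, ANXA1, IRAK3, RGS2, CDKN1C, MAP3K8 and TIPARP.

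Of 26 metabolic targets, 15 had a gained region (57.7%, against 22.1% of all protein-coding genes), and 23 of the 424 regions near them were gained (5.42%, against 2.49% of all regions). Of 185 kept regions near them, the pileup of 21 rose (11.4%) and that of none fell, beside 2.73% and 1.75% over all kept regions. On fold 4 were higher and 4 lower (2.16% each), beside 0.511% and 0.233%. Leaving out 1 library in turn gave 13 to 23 rises on pileup, the fewest without the first DEX library. FOXO3, a factor of fasting and atrophy, had a kept region inside the gene (chr6:108654012-108654578) with 86, 87 and 120 reads with DEX and 10, 8 and 17 with vehicle (3.17 ± 0.22; limma adjusted p = 2.7e-07). PIK3R1 had one as well (chr5:68224622-68225431) with 62, 59 and 76 reads with DEX and 8, 9 and 7 with vehicle (3.08 ± 0.24; limma adjusted p = 6.5e-07). In both, no vehicle library exceeded 17 reads. ANGPTL4, an inhibitor of lipoprotein lipase, had 80, 118 and 75 reads with DEX and 32, 32 and 19 with vehicle (chr19:8355590-8356122; 1.77 ± 0.25; limma adjusted p = 3.0e-04). PDK4 and ACSL1, genes of fatty acid use picked after their values were seen, each had 3 kept regions that rose, by 0.95 to 1.01 and by 1.39 to 1.75. The gluconeogenic and amino acid genes PCK1 and TAT, the insulin signal genes IRS1, IRS2 and FOXO1, and HSD11B1, HSD11B2, SLC19A2 and AQP3 had no changed region.

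The metallothionein genes, which bind zinc and copper and lie side by side on chromosome 16, shared many of these regions. MT1E and MT2A each had 7 kept regions that rose, MT1F 6 and MT1G 5. Counted gene by gene, the 21 rises of the metabolic list became 41 and its 23 gained regions 31. Its counts of genes with a changed region are therefore not independent. At the start of MT2A (chr16:56625221-56626384) pileups were 130, 158 and 164 with DEX and 93, 104 and 114 with vehicle (0.58 ± 0.09; limma adjusted p = 1.1e-03). At chr16:56632177-56632764 they were 70, 97 and 103 with DEX and 33, 36 and 38 with vehicle (1.36 ± 0.14; limma adjusted p = 1.2e-05). At the start of MT1X (chr16:56682050-56682943) they were 119, 143 and 145 with DEX and 122, 127 and 180 with vehicle, and these groups overlapped.

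**Figure D2:**
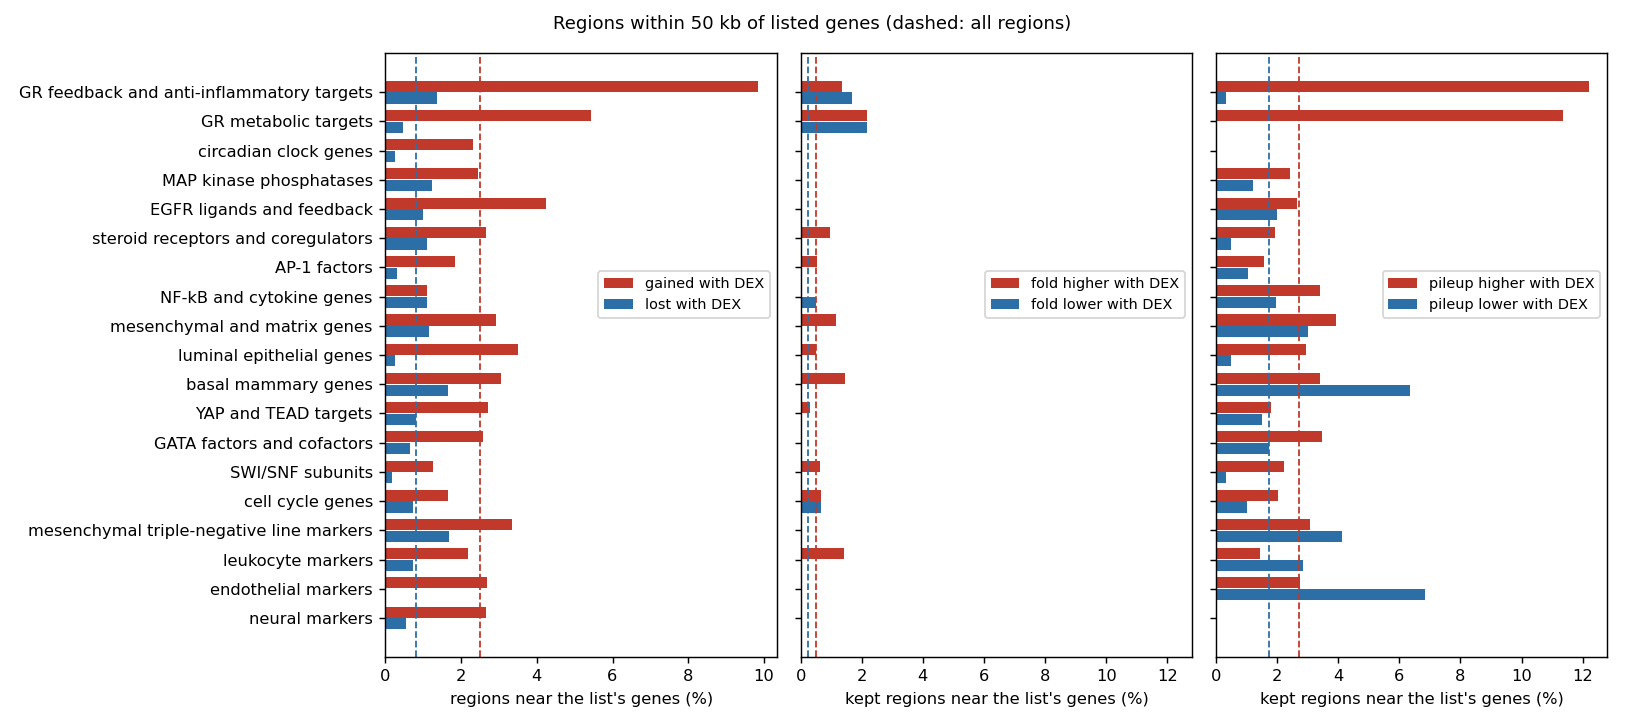
Left, percent of regions near each gene list that were gained or lost; middle and right, percent of kept regions near it whose fold enrichment (middle) or read pileup (right) was higher or lower with DEX by limma (adjusted p under 0.05). The 2 lists of receptor targets lie above the other lists on gained regions (9.85% and 5.42%) and raised pileup (12.2% and 11.4%), while on fold they have 1.36% and 2.16% higher and 1.69% and 2.16% lower.

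In their share of gained regions the other lists lay nearer to the 2.49% over all regions. Near clock genes 9 of 389 regions were gained (2.31%) and no kept region changed in pileup. The gained ones included NR1D1, a repressor in the clock loop (26, 29 and 31 reads), PER3 (23, 20 and 20) and 2 near BMAL1, the clock activator. SWI/SNF subunits had 7 gained regions of 561 (1.25%), cell cycle genes 9 of 547 (1.65%), AP-1 factors 6 of 328 (1.83%) and NF-κB and cytokine genes 4 of 364 (1.10%). Steroid receptors and their coregulators had 12 of 451 (2.66%). EGFR ligands and feedback genes had 13 gained regions (4.25% of those near them), 7 of them near ERRFI1. Mesenchymal and matrix genes had 28 of 960 (2.92%), among them chr18:27922685-27923235 beside CDH2 (35, 51 and 67 reads), and YAP and TEAD targets 20 of 736 (2.72%). Marker lists of leukocytes, endothelium and neurons had 3 of 137, 4 of 149 and 5 of 188.

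The highest shares of kept regions whose pileup fell were near endothelial markers (5 of 73, 6.85%), basal genes (given below) and markers of mesenchymal triple-negative lines (4 of 97, 4.12%), against 1.75% over all kept regions. Leaving out 1 library in turn gave 1 to 4 falls near endothelial markers and 7 to 13 near basal genes. Near mesenchymal and matrix genes 13 of 433 fell (3.00%) and 17 rose (3.93%). LIF, a cytokine of the IL-6 family, had 3 kept regions that fell. The one with the largest difference (chr22:30250807-30251252) had 25, 38 and 27 reads with DEX and 75, 83 and 87 with vehicle (−1.42 ± 0.18; limma adjusted p = 8.9e-05). CSF1, a macrophage growth factor, had 36, 39 and 29 reads with DEX and 70, 77 and 68 with vehicle (−1.01 ± 0.19; limma adjusted p = 4.4e-03). In the same list, CSF3 and CXCL2 had 2 regions each that rose. Of the 205 kept regions near NF-κB and cytokine genes, 7 rose (3.41%) and 4 fell (1.95%), beside 2.73% and 1.75% over all kept regions. On fold none was higher and 1 was lower.

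TP63, the master factor of basal epithelium, had 5 kept regions that fell. At chr3:189710596-189711047 pileups were 53, 49 and 55 with DEX and 101, 107 and 117 with vehicle (it fell by 1.00 ± 0.13; limma adjusted p = 1.3e-04). CDH3, P-cadherin, had 3 that fell by 0.74 to 1.00. CAV1, the coat protein of caveolae, had 88, 105 and 105 reads with DEX and 176, 169 and 179 with vehicle (chr7:116528088-116528314; −0.77 ± 0.10; limma adjusted p = 9.6e-05). SPARC, a matrix glycoprotein, had 2 that fell by 0.54 and 0.83. Of the 205 kept regions near basal genes, 13 fell (6.34%) and 7 rose (3.41%), while on fold 3 were higher and none was lower. Of those that rose, 3 lay in LAMA3, such as chr18:23825974-23826445 with 49, 60 and 75 reads with DEX and 11, 13 and 17 with vehicle (2.21 ± 0.20; limma adjusted p = 4.4e-06). TEK, an endothelial receptor kinase whose start did not hold a peak in all 6 libraries, had 3 kept regions that fell and 1 that rose.

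The 8 kept regions with the lowest adjusted p for a fall in pileup included one inside NRG1, a ligand of ERBB3 and ERBB4 (chr8:32229058-32229571), with 64, 76 and 87 reads with DEX and 193, 204 and 159 with vehicle (−1.25 ± 0.13; limma adjusted p = 1.4e-05). ROBO1, an axon guidance receptor, had 60, 64 and 69 reads with DEX and 136, 132 and 142 with vehicle (chr3:79004979-79005427; −1.04 ± 0.11; limma adjusted p = 1.6e-05). IL7R, the receptor of interleukin 7, had 20, 24 and 27 reads with DEX and 65, 58 and 65 with vehicle (chr5:35857812-35858191; −1.37 ± 0.17; limma adjusted p = 8.8e-05). The groups were separate in all 3. The region with the lowest adjusted p in the list, 12338 bp from SPAAR, had 50, 61 and 64 reads with DEX and 135, 119 and 137 with vehicle (−1.12 ± 0.11; limma adjusted p = 9.4e-06).

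The 8 kept regions with the lowest adjusted p for a higher fold had few reads with vehicle, at most 15 in any library. A region 11899 bp from LOC124904395 (chr1:149228703-149229067) had 128, 129 and 155 reads with DEX and 8, 9 and 9 with vehicle. Its difference on fold was 3.03 ± 0.13 (normal scores; limma adjusted p = 4.5e-05). On log2 pileup it was 4.03 ± 0.18 (limma adjusted p = 6.8e-09). A region in TGFBR3, a coreceptor for TGF-beta (chr1:91725902-91726286), had 60, 81 and 86 reads with DEX and 9, 7 and 7 with vehicle. The difference there was 2.38 ± 0.20 on fold (normal scores; limma adjusted p = 2.4e-03) and 3.34 ± 0.23 on log2 pileup (limma adjusted p = 2.2e-07). PADI4, TNRC6B, WARS2, RAD21 and HNF4G had regions with at most 14 reads in any vehicle library and at least 35 in any DEX library. Ranked by the adjusted p on pileup, the region near LOC124904395 was again first, and the next 7 had 16 to 40 reads in the vehicle libraries. Among them the region in IGF2BP2, an RNA-binding protein, had 145, 186 and 203 reads with DEX and 38, 38 and 37 with vehicle (chr3:185658463-185659271; 2.27 ± 0.12; limma adjusted p = 1.8e-08).

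Over the 79041 kept regions the calls depended on which value was compared, the fold ranked within each library or the pileup. Of the 404 regions higher on fold, 394 were also higher on pileup, whereas of the 184 lower on fold only 62 were lower on pileup and 9 were higher. The first DEX library and the first vehicle library moved these counts by over 1.5 times. Without the first DEX library the counts were 34 and 18 on fold and 1255 and 486 on pileup, and without the first vehicle library they were 137 and 29 on fold and 1374 and 359 on pileup. Leaving out the second or the third DEX library gave 85 and 43 or 81 and 34 on fold, and the second vehicle library 200 and 44 on fold and 535 lower on pileup. Without the third vehicle library 2339 regions were lower on pileup.

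The fold is the pileup over a local background that the peak caller reads from the surroundings. That background was higher with DEX near gained regions. Gained regions were chosen for peaks with DEX alone and their reads can enter a neighbour's background, so these values are a description. In kept regions less than 2 kb from a gained region, the background was higher in every DEX library in 54.2% of 1523 regions, against 14.6% over all kept regions, with a median log2 difference of 0.25 in background, 0.07 in pileup and −0.08 in fold. At 2 to 5 kb the medians were 0.24, 0.04 and −0.14, and beyond 50 kb they were 0.02, 0.00 and 0.02. The share of kept regions whose pileup rose was 11.4% within 2 kb, 7.93% at 2 to 5 kb, 7.50% at 5 to 10 kb, 4.17% at 10 to 50 kb and 1.94% beyond. Of the 184 regions lower on fold, 64.7% had a higher background in every DEX library. Within 10 kb, 61.4% of the 184 had a gained region or a kept region higher on fold or pileup, against 9.57% of all kept regions. The background is recovered from the fold and p, so a lower fold without a lower pileup entails a higher background. The background moved with the pileup of the regions themselves too: it was higher in every DEX library in 87.7% of the 2160 regions higher on pileup, and lower in every DEX library in 81.6% of the 1383 lower on pileup, whose median log2 differences were −0.75 in pileup, −0.47 in background and −0.41 in fold.

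**Figure D3:**
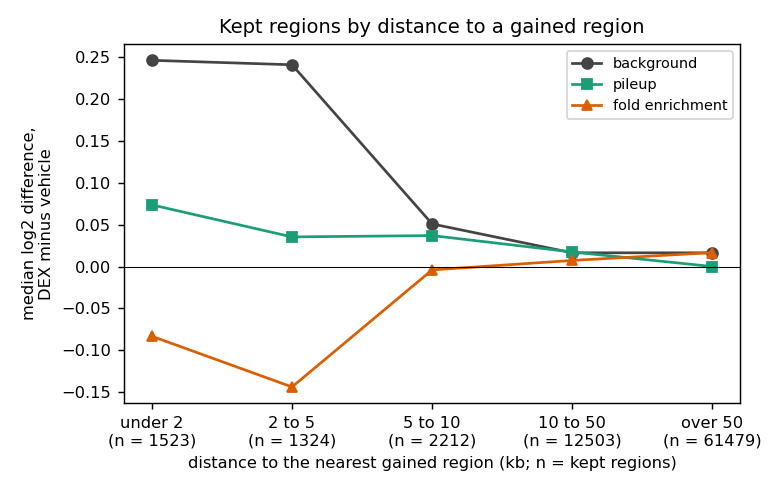
Kept regions binned by distance to the nearest gained region (kb): median log2 difference, DEX minus vehicle, in local background, pileup and fold enrichment, with the number of regions under each bin. The background difference is 0.25 within 2 kb and 0.02 beyond 50 kb, while the fold difference is −0.08 and 0.02.

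The values at single loci show how pileup, background and fold combine. Near ABLIM3, an actin-binding protein, the region with the lowest adjusted p among those lower on fold had pileups of 153, 202 and 187 with DEX and 134, 161 and 152 with vehicle. Its background was 7.05, 9.34 and 7.27 with DEX and 2.62, 3.26 and 2.60 with vehicle, and its fold lay between 19.1 and 22.7 with DEX and between 37.3 and 42.5 with vehicle. The rank-based difference in fold was −1.51 (limma adjusted p = 1.2e-03), while the log2 pileup difference was 0.32 ± 0.10 (limma adjusted p = 0.097). At the FKBP5 start the background was 19.1, 22.7 and 22.2 with DEX and 2.40, 2.26 and 2.38 with vehicle, and the fold was 6.07, 5.94 and 6.84 with DEX and 7.34, 8.59 and 7.98 with vehicle. The rise in reads there did not show in the fold, whose difference was −0.39 (limma adjusted p = 0.49). The MT1X start behaved like ABLIM3, with folds of 13.6, 14.2 and 14.5 with DEX and 29.7, 31.3 and 36.3 with vehicle. A region near DDIT4 (chr10:72254801-72255408) was higher on pileup (0.53 ± 0.10; limma adjusted p = 3.9e-03) and lower on fold (−1.28; limma adjusted p = 4.5e-03).

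**Figure D4:**
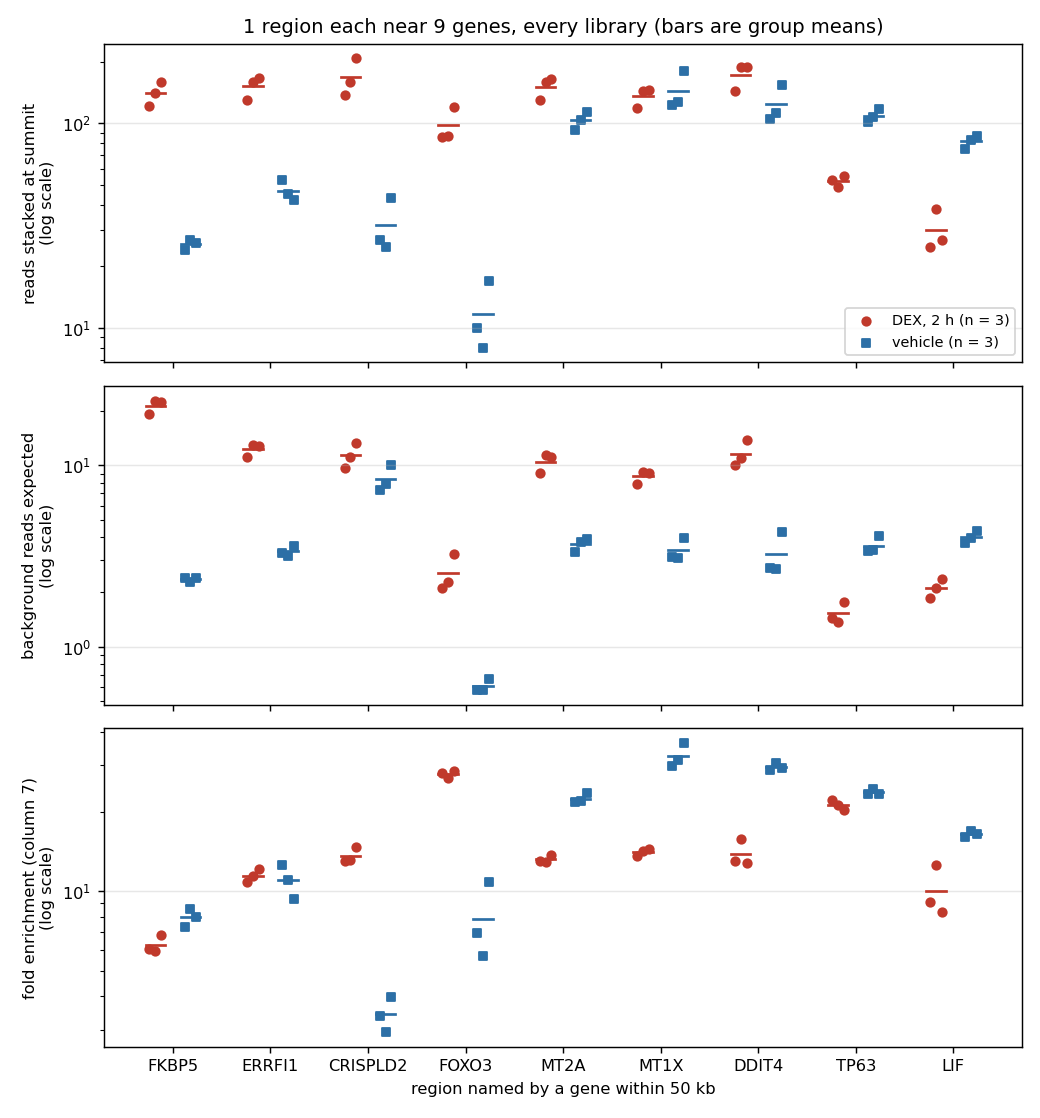
Pileup, local background and fold enrichment (log axes) of kept regions near 9 named genes in each of the 3 DEX and 3 vehicle libraries, points being libraries and bars group means. FKBP5, ERRFI1, CRISPLD2 and FOXO3 have higher pileup in every DEX library, MT1X has a higher background and lower fold, and TP63 and LIF have lower pileup.

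Lost regions were fewer, and their peaks seldom recurred as lost in other libraries. Of protein-coding genes, CDH12 had 5 lost regions of 43, and ABLIM1 had 4. HOXB3 to HOXB9, which lie side by side, shared 4 lost regions among them. The strongest lost region lay 236018 bp from CCT8L2 (chr22:16354696-16354770), with 27, 27 and 37 reads in the vehicle libraries, but it was held by no vehicle library of siGATA6 cells. A lost region 220 bp from CDC42EP3, a Cdc42 effector (chr2:37641583-37641866; 35, 34 and 26 reads), was held by 0 of 3 DEX and 3 of 3 vehicle libraries of siGATA6 cells, and by 0 of 4 DEX and 2 of 4 DMSO libraries without DEX.

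The siGATA6 and DMSO libraries took no part in the calls, so they allow the same measurement again. Gained regions held a peak in 76.0, 80.0 and 81.4% of cases in siGATA6 cells with DEX, against 8.39, 8.02 and 13.1% with vehicle. The means were 79.1 ± 2.81% and 9.83 ± 2.81% (SD, n = 3 each), a difference of 69.3 percentage points (exact permutation p = 0.1, and none smaller can be reached). After 4 h in DMSO cells the shares were 57.5, 55.2, 55.4 and 53.1% with DEX and 2.66, 3.49, 3.35 and 4.07% without, a difference of 51.9 points (n = 4 each; exact permutation p = 0.029, again the smallest that can be reached, and 0.029 after adjustment over 6 tests). Over all regions the shares were 63.0 to 67.3% with DEX and 60.0 to 64.8% with vehicle in siGATA6 cells. The DMSO experiment differs in time and siRNA, so its lower shares are not compared with those of siGATA6 cells.

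Lost regions moved the opposite way and by less. They held a peak in 31.9, 33.3 and 39.5% of cases in siGATA6 cells with DEX and 54.1, 58.1 and 63.6% with vehicle (difference −23.7 points; exact permutation p = 0.1). In DMSO cells the shares were 13.0, 11.4, 11.2 and 9.68% with DEX and 19.8, 25.5, 22.3 and 29.1% without (difference −12.9 points; exact permutation p = 0.029, adjusted 0.029). The groups did not overlap in either experiment. Kept regions whose pileup rose in siCtl cells had a mean log2 pileup 0.90 higher with DEX in siGATA6 cells (1948 regions in all libraries) and 0.97 higher in DMSO cells (1471 regions). Those whose pileup fell had differences of −0.58 and −0.69 (1267 and 960 regions). Each pair of groups was separate, with the smallest possible exact permutation p of 0.1 in siGATA6 cells and 0.029 in DMSO cells.

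**Figure D5:**
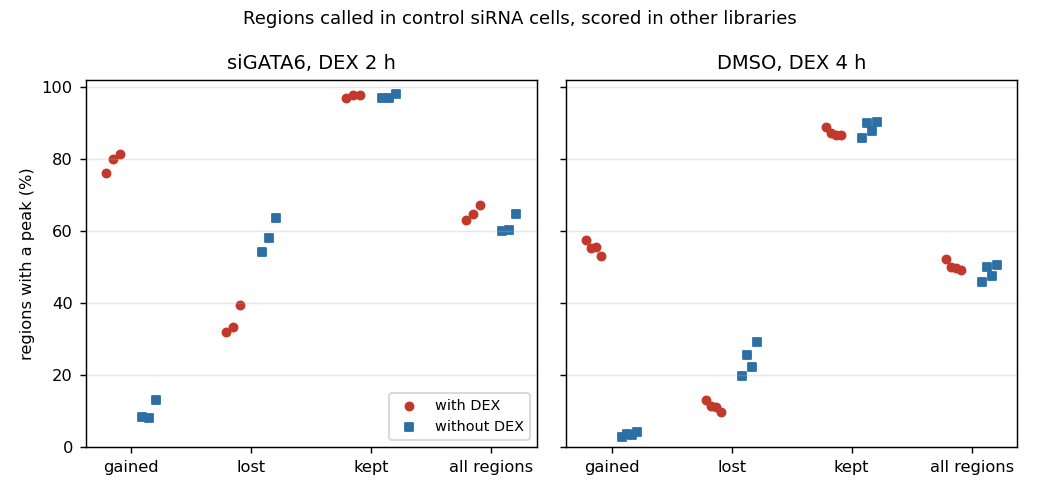
Libraries that did not enter the calls: percent of gained, lost, kept and all regions with a peak, with DEX (left of each pair) and without DEX, in siGATA6 cells (left panel, n = 3 each) and DMSO cells (right panel, n = 4 each), points being libraries. Gained regions lie between 53.1 and 81.4% with DEX and between 2.66 and 13.1% without.

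Region by region, 2234 of the 4325 gained regions (51.7%) were again held by all DEX libraries and no vehicle library in siGATA6 cells, where the rule called 2.32% of all regions, and 1335 (30.9%) in DMSO cells, where it called 1.40%. None was called the opposite way in either. The share grew with the strength of the peak: in 4 groups of equal size by rising fold rank it was 27.2, 39.1, 58.5 and 81.9% in siGATA6 cells and 9.61, 15.1, 32.4 and 66.4% in DMSO cells. Of gained regions at gene starts 34.5% were called again in siGATA6 cells, and of those elsewhere 53.1%, a difference that was not tested. In no library of siGATA6 cells were 280 gained regions found, and in none of the DMSO experiment 905.

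The 1042 regions gained in all 3 experiments (24.1%) included 7 near FKBP5, 6 near GSE1, 5 near TSC22D3 and 4 each near DDIT4, LPP and ZNF438. GSE1, a protein found with histone deacetylase complexes, and KCNMA1, a potassium channel, had the most gained regions of any gene in siCtl cells, 13 of 113 and 13 of 133. The GSE1 regions had at most 56 reads in any DEX library. KCNMA1 also had kept regions that moved both ways, 5 with a higher and 5 with a lower pileup. At chr10:77507261-77507706 reads were 61, 95 and 108 with DEX and 29, 28 and 31 with vehicle (1.59 ± 0.16; limma adjusted p = 9.0e-06), and at chr10:77273998-77274335 they were 43, 49 and 48 with DEX and 80, 69 and 82 with vehicle (difference −0.67; limma adjusted p = 8.4e-03, and 0.080 without the first vehicle library). LPP, a protein of cell adhesions, had 10 of 82, and a kept region (chr3:188417240-188417781) with 119, 157 and 160 reads with DEX and 50, 41 and 50 with vehicle (1.67 ± 0.12; limma adjusted p = 3.5e-07). Of lost regions 92 (6.50%) were lost again in siGATA6 cells, where 0.544% of all regions were, and 31 (2.19%) in DMSO cells, where 0.398% were. In siGATA6 cells 12 lost regions were called the opposite way, as gained, and in DMSO cells none was. Only 4 were lost in all 3 experiments. They lay 34892 bp from ATP6V1G1 (chr9:114552758-114552997; 39, 31 and 43 reads with vehicle), between DDIT4 and DNAJB12 (chr10:72310842-72310994; 24, 22 and 38), inside HOXB3 (chr17:48582542-48582945; 24, 22 and 32) and 980143 bp from CDH2 (chr18:29157163-29157383; 29, 19 and 20).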

How the data were processed

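Peak lists of 6 libraries were used, 1 per library, and those of 14 further libraries for scoring. Per the submitters' processing notes the authors used bcl2fastq, SAMtools, MACS2 and HOMER with build GRCh38 (hg38). The aligner and the settings of the peak caller were not given in the sources used. For each peak the authors deposited a fold enrichment over local background (a ratio), a −log10 p and −log10 q, and a score, and these values are the authors' own. Per the labels' protocols the aim was 25 M read pairs (50 bp) a library, and the depth reached is unknown.

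From the deposited fold and −log10 p, a whole pileup and a background were recovered under a Poisson model for every peak (tolerance 0.002). Kept regions were tested with limma 3.58.1 in R 4.3.3 (trend, Benjamini-Hochberg adjustment, threshold 0.05) on normal scores of the strongest peak's fold, ranked within each library. The same test on log2 pileup, centred on each library's median, was chosen after the data were seen. On data simulated on the 79041 kept regions, the fold test recovered 81.8% of 99 shifts of size 2 and 22.8% of 101 of size 1. Differences on fold are in units of normal scores. Single values were compared with exact two-sided permutation tests (scipy 1.17.1 in Python 3.11.15). P-values measure the spread between libraries titled as biological replicates, and the labels do not say whether these came from separate cultures.

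Regions were assigned to every gene that held their centre or lay within 50 kb of it. Starts came from RefSeq and were known for 79.2% of 19974 protein-coding genes, and either gene end was used for the rest. No genome sequence was used here, so motifs were searched only in RefSeq promoter windows. Named genes are those with most gained or lost regions, the 8 regions highest in rank for each call, up to 4 members of each list and direction, and 12 genes always given. Some genes that this rule names are not reported here. The regions, gene lists and tests were chosen with earlier results of these data known, and the lists get no test. Alternatives were the −log10 q minimum, the overlap, equal peak numbers, −log10 q in place of fold, log2 fold, region width, gene distance, a replicate block and leaving out each library.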

Additional observations from a re-analysis of the deposited data

How the results depend on the processing

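Counts of gained and lost regions kept within 1.5 times of 4325 and 1416 under each −log10 q minimum, under a minimum cover of the region and with equal peak numbers. Leaving out each library gave 4993 to 6151 gained and 2172 to 3502 lost regions. The difference in peaks per library was -1087 without the third DEX library and at most 2487 without another.

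Kept regions higher and lower on fold numbered 404 and 184, against 1316 and 585 on −log10 q, 183 and 143 in the upper part of the fold range, 232 and 83 among regions of at most 500 bp, 2160 and 1383 on pileup, and 34 to 399 and 18 to 133 without 1 library each. On pileup, leaving out 1 library each gave 1255 to 2624 higher and 359 to 2339 lower. A replicate block gave 669 and 483 on fold and 4553 and 5079 on pileup, so that falls outnumbered rises. Deviations of same-numbered libraries correlated at 0.0798, 0.182 and 0.348, and 5 of 6 libraries correlated best with their own number, a hint of shared handling. Fold scores of the third DEX library correlated at 0.916 with the third vehicle library and at 0.913 and 0.911 with the other DEX libraries. The first correlation of deviations missed the 0.1 asked of every pair, and the labels name no shared batch, so the fit has no block. Of regions lower on fold, pileup differences were positive near ABLIM3 (0.32), ST6GALNAC5 (0.52; 0.021 on −log10 q), BCR (0.18), LOC124904930 (0.32) and SLC45A4 (0.25); the cause was not tested.

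In siGATA6 cells, leaving out 1 library gave differences of 68.1 to 70.9 points for gained and −26.0 to −21.2 for lost regions, 1.09 to 1.13 and −0.77 to −0.74 for regions higher and lower on fold, and 0.86 to 0.88 and −0.63 to −0.58 on pileup. In DMSO cells they were 51.2 to 52.7 and −14.3 to −11.2, 1.27 to 1.33 and −0.64 to −0.62, and 0.94 to 1.01 and −0.73 to −0.67. These differences kept their direction, and groups with 1 library fewer cannot reach the p of the complete groups. Over all gene lists together, genes with a gained region made up 37.0%, against 23.6% within 10 kb and 48.1% within 100 kb (all protein-coding genes 22.1%, 11.5% and 32.9%). For lost regions the share was 12.8%, against 18.8% within 100 kb (all genes 7.55% and 11.6%). For higher pileup it was 21.7%, against 14.1% and 32.3% (all genes 11.7%, 6.01% and 18.3%), and for lower pileup 10.9%, against 7.61% within 10 kb (all genes 5.96% and 3.29%). At a −log10 q of at least 5, ZBTB16 had 5 gained regions in place of 8, FGGY 4 in place of 8, KLF9 5 in place of 3, CDH12 2 lost regions in place of 5, and ABLIM1 0 in place of 4. Of 246 pileup calls near listed or named genes, 92, 71 and 49 ended without DEX library 1, 2 and 3, and 91, 68 and 18 without vehicle library 1, 2 and 3. The depth of each library is unknown, so no detection limit is given.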
